A study of Homo sapiens with 6 samples.

Results

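The genes described here are 42 human factors that carry out translation on cytoplasmic ribosomes, from the recruitment of mRNA through initiation and elongation to the release of the finished protein. They were taken by name from the 61533 gene rows of an RNA-seq count table, with earlier results of these data known, among them the fall of EEF2. The table compares 3 shKDM2B libraries, from cells with a short hairpin RNA against the chromatin regulator KDM2B, with 3 empty vector libraries, from cells of wild-type genotype that carry the vector alone. Both groups are MDA-MB-231, an established line of human breast cancer without hormone receptors or HER2 amplification, harvested below confluence, and both were sequenced as total RNA after removal of ribosomal RNA. The title of the series places KDM2B in the regulation of amino acid metabolism, together with MYC and ATF4. The replicates are labelled as biological. Neither separate cultures nor the origin of a group from 1 clone or a pool is stated.

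Initiation begins when eIF4F binds the cap of an mRNA and the small ribosomal subunit, loaded with eIF1, eIF1A, eIF2, eIF3 and eIF5, scans to a start codon. Elongation factor eEF1A then brings each aminoacyl-tRNA to the ribosome, eEF2 moves the ribosome along by a codon, and eRF1 with eRF3 ends synthesis at a stop codon. Many mRNAs of the translation machinery begin with a terminal oligopyrimidine (TOP) motif, a C at the cap followed by a run of pyrimidines, through which mTORC1 signalling controls their translation.

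Library totals ran from 10437732 to 15737951 counts in the shKDM2B libraries and from 10190149 to 13635565 counts in the empty vector libraries. KDM2B itself had 14.9, 14.5 and 14.6 CPM in the shKDM2B libraries, against 57.3, 68.0 and 65.3 CPM in the empty vector libraries, where CPM is the count scaled to library size with TMM factors. Its log2 fold change was -2.12 (SE 0.08, adjusted p 8.77e-11 in edgeR's quasi-likelihood test). For the cell line, ESR1 and PGR, which encode the oestrogen and progesterone receptors, stayed at or under 0.289 CPM in all 6 libraries. ERBB2, which encodes HER2, had 54.4 to 70.6 CPM, and CD44, a surface marker high in this line, had 943.0 to 1277.8 CPM. VIM, the mesenchymal filament protein vimentin, had 395.8 to 415.9 CPM in the shKDM2B libraries and 1235.1 to 1331.8 CPM in the empty vector libraries. CDH1, the epithelial E-cadherin, had at most 0.388 CPM in the shKDM2B libraries and 0 counts in the empty vector libraries. The part of these differences in the results was not tested. shKDM2B replicate 1 and empty vector replicate 2 stood apart from the other libraries of their groups, with a chi-square per degree of freedom of 6.8 to 8.74 and of 5.43 to 6.11 in the pairs that hold them, against 2.03 and 1.89 in the remaining pairs. All log2 fold changes are shKDM2B over empty vector, and a gene was called lower or higher where its p, adjusted over the 14071 genes tested, was under 0.05.

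Each of the 42 factors had 1 row in the table, and 40 had enough counts to be tested. Of these, 24 were lower in shKDM2B cells, 3 were higher and 13 were not called, with a median log2 fold change of -0.23 against -0.01 over all genes tested. The response was broad, with 30.4% of all tested genes called lower and 30.5% called higher, against 60.0% and 7.5% of the tested factors. The 3 shKDM2B values lay below all 3 empty vector values for 24 factors and above them for 2, against 32.5% and 33.0% of all tested genes. A change of at least 1.5-fold was seen for 10 of the factors called lower and 1 of those called higher, of 40 tested. Among all 14071 genes tested, 1907 called lower and 2103 called higher changed by as much. Other annotated genes cover 51.8% of the exon bases of EIF3L, 34.0% of those of EEF1D, 24.2% of those of EIF4E2, 17.9% of those of EIF4A2 and 17.4% of those of EEF1B2 and EIF6, on the opposite strand for EEF1D and EIF4E2, and reads of shared bases can have been lost or counted to the other gene. These p-values measure the spread between the libraries, which may be technical, and in bulk RNA fewer cells of a type and less RNA per cell cannot be told apart.

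**Figure D1:**
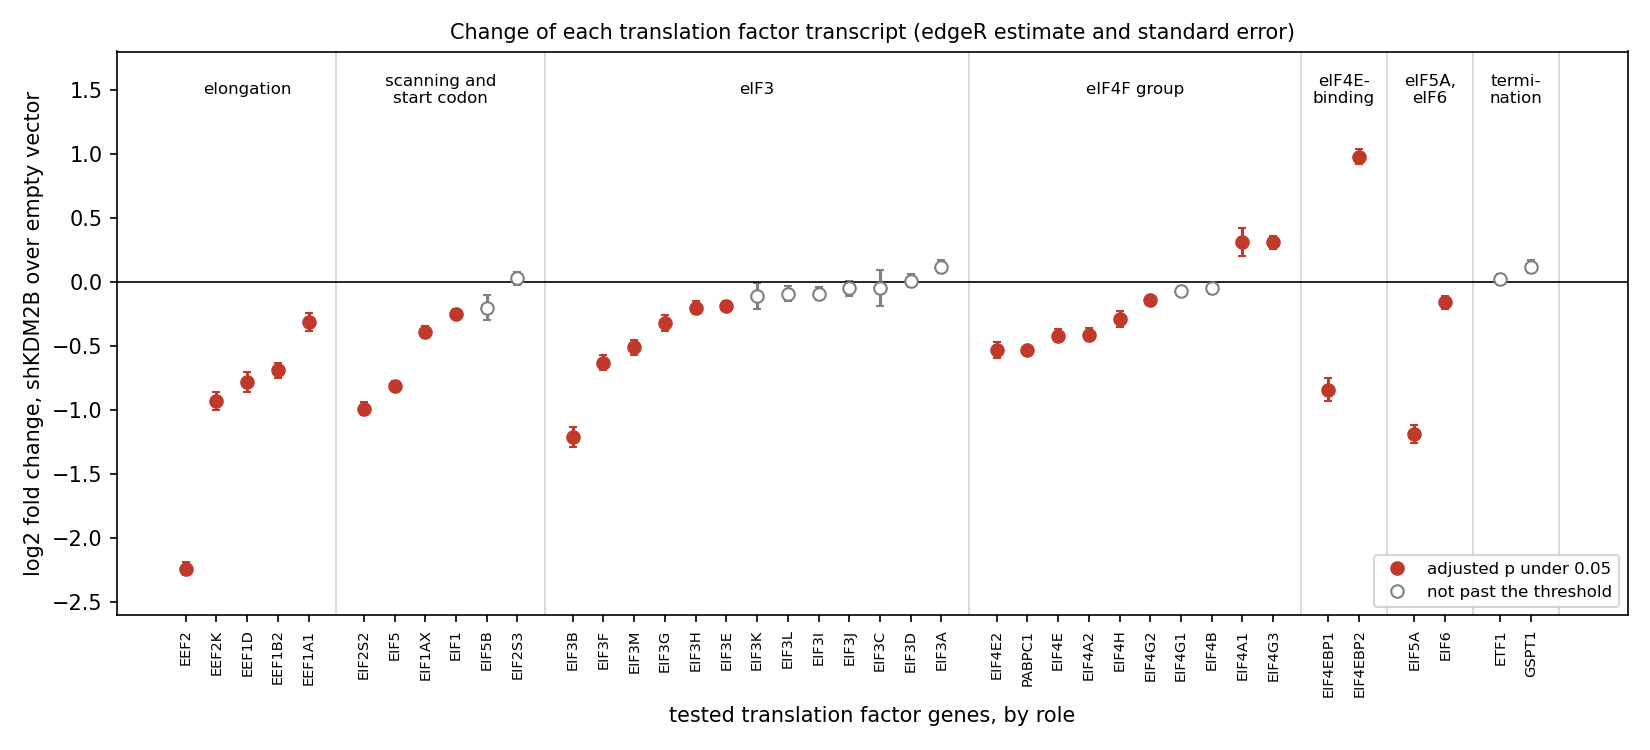
Log2 fold change of shKDM2B over empty vector for the 40 tested translation factor genes, grouped by role, with bars for the standard error of the edgeR fit (n = 3 libraries per group). Filled points passed an adjusted p of 0.05. EEF2 lies lowest at -2.24 and EIF4EBP2 highest at 0.98, while the termination factors lie near 0.

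Together the 42 factors took 2.38%, 2.39% and 2.41% of the counts of the shKDM2B libraries, against 3.10%, 3.31% and 3.07% of those of the empty vector libraries. The difference was not carried by the factors EEF1A1 and EEF2 alone. Without them the share was 1.43%, 1.44% and 1.45% in shKDM2B cells, against 1.84%, 1.87% and 1.83% in empty vector cells. The groups did not overlap in either share, and the exact two-sided permutation test gave p = 0.1, the smallest that 3 against 3 libraries allow.

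The elongation factors and the kinase of eEF2 fell together. All 5 that could be tested were lower in shKDM2B cells, against 30.4% of all tested genes (median log2 fold change -0.78). Because the fall of EEF2 was already known when the factors were chosen, this count is a description. EEF2, the translocase that moves the ribosome after each peptide bond, had 284.3, 296.3 and 317.3 CPM in the shKDM2B libraries, against 1437.6, 1380.7 and 1434.5 CPM in the empty vector libraries. The groups lay far apart, and the shKDM2B mean was 21.1% of the empty vector mean. EEF2 fell by 2.24 on the log2 scale (SE 0.05, adjusted p 3.1e-13), which was the largest change among the 40 tested factors. The gene lies on the minus strand at chr19:3976056-3985469 (GRCh38, GENCODE 29).

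EEF1A1, which encodes the carrier of aminoacyl-tRNA and was the most abundant of the 42 transcripts, had 9373.7, 9240.5 and 9559.2 CPM in the shKDM2B libraries, against 11087.0, 12937.1 and 10813.9 CPM in the empty vector libraries. Its fall was the smallest among the elongation factors, with a log2 fold change of -0.31 (SE 0.07, adjusted p 0.00529). Against a threshold of 1.2-fold it was no longer called (adjusted p 0.21). EEF1B2 and EEF1D encode subunits of the eEF1B complex, which reloads eEF1A with GTP. EEF1B2 had 219.3, 219.4 and 220.2 CPM in the shKDM2B libraries, against 350.5, 383.7 and 331.9 CPM in the empty vector libraries (log2 fold change -0.69, SE 0.06, adjusted p 8.84e-08). EEF1D had 103.7, 104.8 and 91.6 CPM in the shKDM2B libraries, against 161.5, 195.4 and 158.0 CPM in the empty vector libraries (log2 fold change -0.78, SE 0.08, adjusted p 2.78e-06). Both genes were therefore lower than every empty vector library in every shKDM2B library, and by more than EEF1A1.

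EEF2K encodes the kinase that phosphorylates and inhibits eEF2. Its transcript had 27.9, 26.4 and 26.2 CPM in the shKDM2B libraries, against 47.4, 54.5 and 51.3 CPM in the empty vector libraries (log2 fold change -0.93, SE 0.07, adjusted p 9.8e-08). The kinase fell less than its target, so the ratio of EEF2K to EEF2 counts was 0.0982, 0.089 and 0.0827 in the shKDM2B libraries, against 0.0329, 0.0395 and 0.0357 in the empty vector libraries. The ratio was 2.5-fold higher in shKDM2B cells (log2 difference 1.32, SE 0.10). The groups did not overlap, at the smallest exact two-sided permutation p of 0.1, and p stayed at 0.1 after adjustment over the 8 ratios compared.

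The remaining pair of elongation factors had too few counts to be tested. EEF1A2, the paralog of EEF1A1 known from muscle and neurons, had at most 1 count in any library. EEF1G, the gamma subunit of eEF1B, had 0 counts in all 6 libraries, which allows up to 0.191 to 0.294 CPM at a limit of 3 counts per library, for counting error only. In GENCODE 29 the locus AP002990.1 covers 99.9% of the exon bases of EEF1G on the same strand, and that locus had at most 3 counts in any library. Reads of the shared exons cannot be assigned to either gene from these counts, and the part of the overlap in the zero was not tested.

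**Figure D2:**
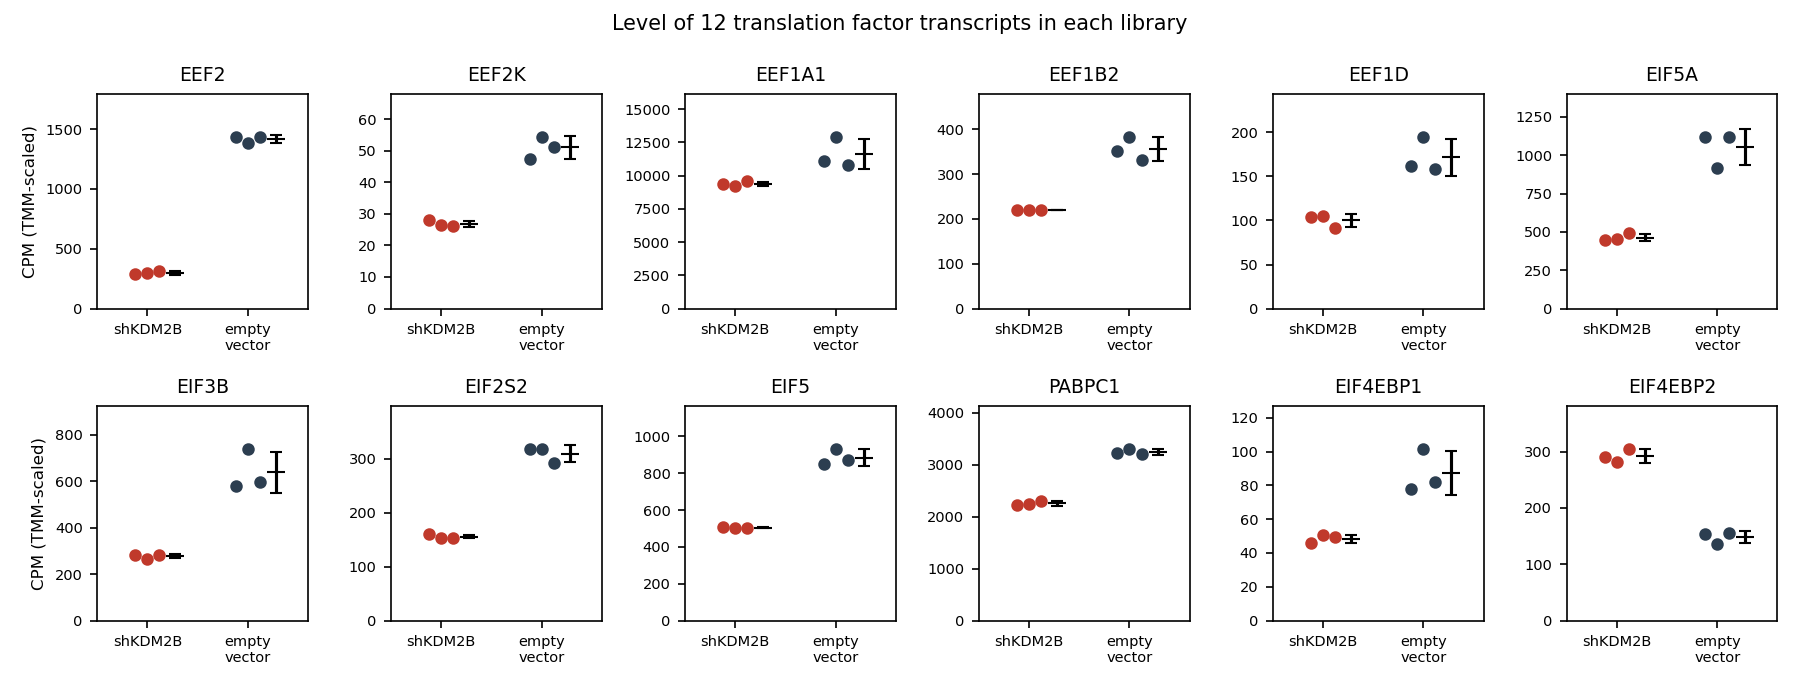
TMM-scaled CPM of 12 translation factor transcripts in each of the 3 shKDM2B libraries (left in each panel) and the 3 empty vector libraries (right), with lines for the mean and the SD. EIF4EBP2 is the only one of the 12 with higher values in the shKDM2B libraries, and in none of the panels do the groups overlap.

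EEF2, EIF3B, EIF4EBP1 and EIF4EBP2 were among the factors that changed place when ordered by level per length. On the scale of CPM per kilobase of annotated exon, EEF1A1 ranked 1 and PABPC1 ranked 2 among the 42 factors in both groups. EEF2 ranked 15 in shKDM2B cells at 74.3 CPM per kilobase, and 4 in empty vector cells at 352.0 CPM per kilobase. EIF5A ranked 6 in shKDM2B cells at 164.2 CPM per kilobase, and 3 in empty vector cells at 374.0 CPM per kilobase. EIF3B ranked 29 in shKDM2B cells and 19 in empty vector cells, and EIF4EBP1 ranked 24 in shKDM2B cells and 18 in empty vector cells. EIF4EBP2 ranked 25 in shKDM2B cells and 32 in empty vector cells, and ETF1, whose own level was not called, ranked 8 in shKDM2B cells and 14 in empty vector cells. The lengths join the exons of all annotated transcripts of a gene, so a gene with many unused exons reads low on this scale.

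Because mRNAs of elongation factors are known for TOP motifs, the annotated starts of the factors were read from RefSeq promoter windows (GRCh38.p14), in which 32 of the 42 had an entry. The lines give 10 bases before and 20 bases from the annotated start, 5′ to 3′ on the strand of the gene, with the pyrimidine run at the start in capitals where it begins with C and is followed by at least 4 pyrimidines. EEF2 and EEF1B2 are shown because they fell most among the factors with such a start, EIF2S3 and EIF3D because they have the same kind of start and were not called, and EIF4EBP2 and EIF3B because they had the largest rise and the largest fall among the factors with an entry and no such start. EEF1B2 has a further annotated start, at chr2:206159609, which has no such run and is not shown.
EEF2 (chr19:3985444-3985473, minus strand): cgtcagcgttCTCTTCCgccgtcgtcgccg
EEF1B2 (chr2:206159885-206159914, plus strand): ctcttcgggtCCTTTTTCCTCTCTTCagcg
EIF2S3 (chrX:24054946-24054975, plus strand): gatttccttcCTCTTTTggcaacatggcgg
EIF3D (chr22:36529147-36529176, minus strand): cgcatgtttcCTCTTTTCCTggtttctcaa
EIF4EBP2 (chr10:70404135-70404164, plus strand): gccttcgcccgcttccggtcgtcgtcgtcg
EIF3B (chr7:2354817-2354846, plus strand): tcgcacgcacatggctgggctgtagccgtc
EEF2 and EIF2S3 thus both begin with C and a run of pyrimidines, while their log2 fold changes were -2.24 and 0.03.

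Of the 32 factors with an entry, 10 (31.2%) had a pyrimidine start at 1 or more of their annotated starts, against 7.36% of the 10410 tested genes with an entry and 4.07% of all 35116 windows. They were EEF1A1, EEF1B2, EEF2, EIF2S3, EIF3D, EIF3F, EIF3K, EIF3M, EIF4A2 and EIF4B. Of these 10, 6 were lower in shKDM2B cells, and their log2 fold changes ran from -2.24 to 0.03 with a median of -0.36. Of the 21 tested factors without such a start, 11 fell and 3 rose (median -0.16). Over all tested genes the medians were -0.09 with such a start, where 38.9% were lower, and 0.00 without one, where 31.1% were lower. The annotated start is not a measured start in these cells, and no more than the presence of these letters is described. By a list of TOP mRNAs known from the literature, 9 of the 10 factors on it were tested and 8 were lower (88.9%), with a median of -0.53. Of the 31 tested factors outside that list, 16 were lower (51.6%, median -0.16), against 30.4% of all tested genes. The list holds EEF2 and was chosen with earlier results known, so its counts are a description. The 4 further TOP mRNAs listed outside the factors and the ribosomal proteins were lower too, against 30.4% of all tested genes. Among them were HNRNPA1 (-0.57), TPT1 (-0.41) and RACK1 (-0.36). These 4 were likewise picked with earlier results known, so their count is a description as well.

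For the factors named with MYC and ATF4 in the title, the same 300-base windows (250 before and 50 from the start) were searched on both strands. The E-box CACGTG, the sequence that MYC binds with MAX, was present for 7 of the 32 factors (21.9%), against 12.4% of tested genes. Of these 7, 4 were lower (57.1%), against 13 of the 24 tested factors without an E-box (54.2%). Over all tested genes 32.8% with an E-box and 31.5% without one were lower. The 7 were EEF2K, EIF3F, EIF3K, EIF4B, EIF4E, EIF4G1 and EIF4H, with a median log2 fold change of -0.29, against -0.18 for the factors without an E-box. The CARE sequence TGATGNAA, bound by ATF4 with C/EBP partners, was not found in the windows of the 32 factors, and was present for 2.74% of tested genes. With so low a share, its absence from 32 genes cannot set the factors apart from other genes. Factors without an entry, EIF4EBP1 among them, were not searched.

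Factors that load the ribosome with initiator tRNA and find the start codon were lower in 4 of 6 cases (66.7%). The share of all tested genes was 30.4%, and the median log2 fold change of the 6 factors was -0.32. EIF2S2, the beta subunit of the tRNA carrier eIF2, had 159.8, 153.7 and 153.4 CPM in the shKDM2B libraries, against 318.6, 318.8 and 291.2 CPM in the empty vector libraries. It fell by 0.99 on the log2 scale (SE 0.05, adjusted p 1.41e-09). EIF2S3, the gamma subunit of the same complex, did not follow, with 198.1, 200.0 and 194.7 CPM in the shKDM2B libraries, against 202.5, 180.5 and 199.4 CPM in the empty vector libraries. Its log2 fold change was 0.03 (SE 0.05, adjusted p 0.703), and the groups overlapped. The alpha subunit EIF2S1, which is no member of the 42 and was looked up after these values were seen, had a log2 fold change of 0.13 (SE 0.04, adjusted p 0.014).

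EIF5, the GTPase-activating protein of eIF2, had 507.3, 503.6 and 502.8 CPM in the shKDM2B libraries, against 848.0, 934.0 and 870.0 CPM in the empty vector libraries. It fell by 0.81 on the log2 scale (SE 0.04, adjusted p 1.73e-09). EIF1AX, which promotes scanning, had 182.8, 177.5 and 172.4 CPM in the shKDM2B libraries, against 243.9, 228.8 and 223.1 CPM in the empty vector libraries (log2 fold change -0.39, SE 0.05, adjusted p 1.7e-05). EIF1, which guards the choice of the start codon, was lower by a small step (log2 fold change -0.25, SE 0.04, adjusted p 0.000113) and did not pass the test against a 1.2-fold change (adjusted p 0.556). EIF5B, which joins the large ribosomal subunit, had 41.8 to 50.8 CPM in the shKDM2B libraries and 46.3 to 61.5 CPM in the empty vector libraries and was not called (log2 fold change -0.20, SE 0.10, adjusted p 0.106). When 1 library was left out its log2 fold change ran from -0.10 (adjusted p 0.279), without empty vector replicate 2, to -0.31 (adjusted p 0.0107), without empty vector replicate 3, and it was -0.12 (adjusted p 0.363) without shKDM2B replicate 2. With no filter beyond 1 read it was called (-0.22, adjusted p 0.00441).

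The 13 subunits of eIF3, the scaffold that holds the scanning ribosome and its factors together, did not move as 1 unit. In shKDM2B cells 6 were lower (46.2%, against 30.4% of all tested genes) and 7 were not called. Their median log2 fold change was -0.11 over the 13 subunits. EIF3B, a subunit of the core that eIF3 shares with yeast, had 284.2, 266.4 and 280.6 CPM in the shKDM2B libraries, against 580.8, 740.6 and 595.3 CPM in the empty vector libraries. It fell by 1.21 on the log2 scale (SE 0.08, adjusted p 2.6e-07), to 43.4% of the empty vector mean. EIF3F had 197.3, 196.7 and 197.4 CPM in the shKDM2B libraries, against 282.7, 334.3 and 299.8 CPM in the empty vector libraries (log2 fold change -0.63, SE 0.06, adjusted p 4.51e-07). EIF3M had 188.3, 193.7 and 198.0 CPM in the shKDM2B libraries, against 262.5, 299.5 and 261.5 CPM in the empty vector libraries (log2 fold change -0.51, SE 0.06, adjusted p 3.79e-06). EIF3F and EIF3M form a module of the complex with EIF3H, and in all 3 the shKDM2B values lay below the empty vector values.

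EIF3G, EIF3H and EIF3E were also lower, with log2 fold changes of -0.32, -0.20 and -0.19, and none of these 3 passed the test against a 1.2-fold change. Of the other core subunits, EIF3G is among these 3. EIF3A, EIF3C and EIF3I were not called, with log2 fold changes of 0.12, -0.05 and -0.09. EIF3D, which can bind the cap of some mRNAs, had 289.1, 290.2 and 295.8 CPM in the shKDM2B libraries, against 277.1, 305.7 and 283.5 CPM in the empty vector libraries (log2 fold change 0.01, SE 0.05, adjusted p 0.818). edgeR called none of the 13 subunits higher, and DESeq2 likewise. EIF3A was higher at an unadjusted p of 0.0371, was called by limma-voom (adjusted p 0.0496), and was called without empty vector replicate 2 (log2 fold change 0.16, adjusted p 0.000214). With all libraries EIF3J (log2 fold change -0.05, adjusted p 0.541) and EIF3L (-0.09, adjusted p 0.233) were not called. Without empty vector replicate 2, EIF3J (-0.13, adjusted p 0.00711) and EIF3L (-0.17, adjusted p 0.00038) were called lower. EIF3C had only 10.1 ± 2.04 CPM in shKDM2B cells and 10.6 ± 0.417 CPM in empty vector cells (SD, n = 3 each), beside the near-identical copy EIF3CL, whose row held 476 to 687 counts in the shKDM2B group and 446 to 680 in the empty vector group. The level of EIF3C is therefore uncertain.

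**Figure D3:**
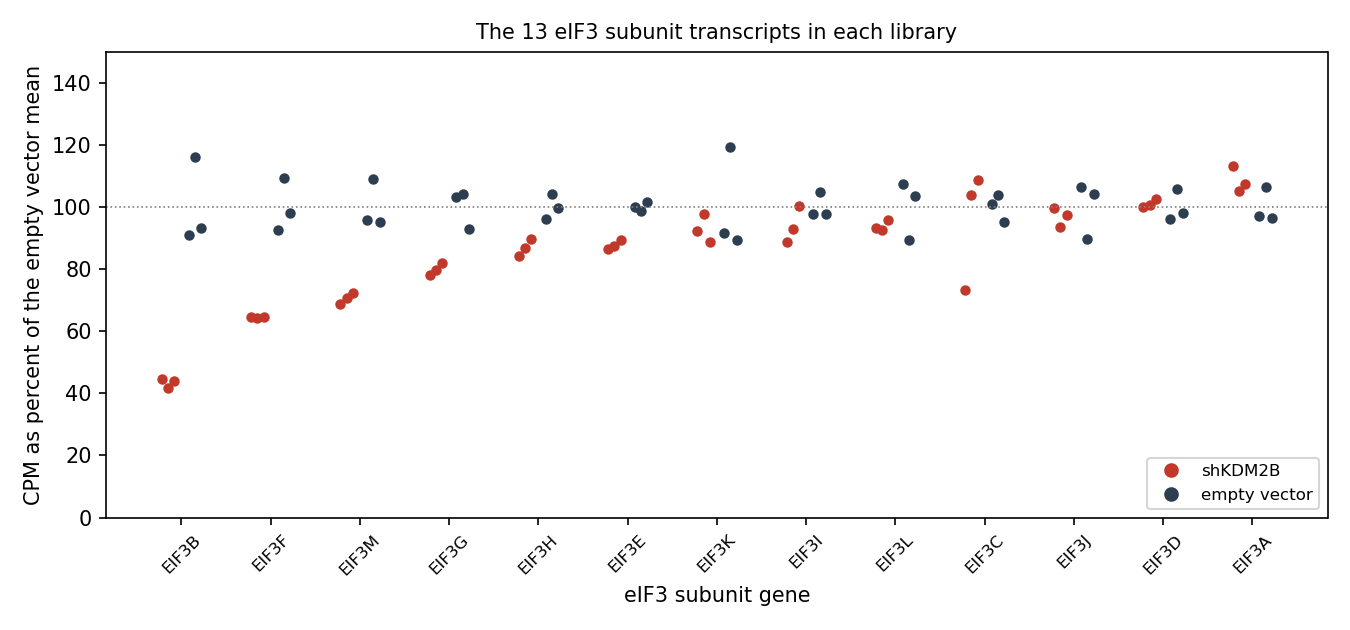
CPM of the 13 eIF3 subunit transcripts in each library as a percent of the empty vector mean of that gene, with the 3 shKDM2B libraries left of the 3 empty vector libraries. The shKDM2B points of EIF3B lie near 43.4%, those of EIF3F, EIF3M, EIF3G, EIF3H and EIF3E lie below all of their empty vector points, and those of the remaining 7 subunits overlap them.

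Among the 10 genes of the cap-binding complex eIF4F, its paralogs and its partners, 6 were lower and 2 were higher in shKDM2B cells. Over all tested genes 30.4% were lower and 30.5% were higher. The changes of the 10 genes were small, with a median log2 fold change of -0.21 and none beyond 1.5-fold. EIF4E, the cap-binding subunit, had 111.9, 110.5 and 116.2 CPM in the shKDM2B libraries, against 153.1, 143.0 and 156.5 CPM in the empty vector libraries (log2 fold change -0.42, SE 0.05, adjusted p 1.07e-05). EIF4E2, a cap-binding relative known for repression of translation, had 49.6, 49.2 and 50.9 CPM in the shKDM2B libraries, against 71.0, 70.3 and 75.0 CPM in the empty vector libraries (log2 fold change -0.53, SE 0.06, adjusted p 1.7e-06). The ratio of EIF4E2 to EIF4E counts was 0.443, 0.445 and 0.438 in the shKDM2B libraries, against 0.464, 0.492 and 0.479 in the empty vector libraries, a log2 difference of -0.11 (SE 0.025; exact permutation p = 0.1). The ratio moved little beside the fall of each transcript, although its groups did not overlap.

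The scaffold paralogs did not move alike. EIF4G1, the main scaffold of eIF4F, had 1640.6, 1617.7 and 1694.7 CPM in the shKDM2B libraries, against 1736.6, 1796.5 and 1673.3 CPM in the empty vector libraries, with overlapping groups and no call (log2 fold change -0.07, SE 0.04, adjusted p 0.0999). It was called lower under 2 of the 4 other scalings, by library totals (-0.10) and by TMM without translation genes (-0.08), and without empty vector replicate 2 (-0.05) or replicate 3 (-0.10). EIF4G2, a relative that lacks the eIF4E-binding region, had 1823.2, 1770.5 and 1813.6 CPM in the shKDM2B libraries, against 1984.8, 1997.9 and 1976.4 CPM in the empty vector libraries (log2 fold change -0.14, SE 0.03, adjusted p 0.00125). EIF4G3, the closest paralog of EIF4G1, rose, with 128.0, 128.6 and 128.7 CPM in the shKDM2B libraries, against 106.9, 99.6 and 104.6 CPM in the empty vector libraries (log2 fold change 0.31, SE 0.05, adjusted p 0.000111). Neither EIF4G2 (adjusted p 1.0) nor EIF4G3 (adjusted p 0.147) passed the test against a 1.2-fold change. The ratio of EIF4G3 to EIF4G1 counts was 0.078, 0.0795 and 0.076 in the shKDM2B libraries, against 0.0615, 0.0555 and 0.0625 in the empty vector libraries. It was 1.3-fold higher in shKDM2B cells, and the ratio of EIF4G2 to EIF4G1 was 1.05-fold lower (exact permutation p = 0.1 for each).

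Of the RNA helicases of eIF4F, EIF4A2 had 614.4, 612.7 and 614.9 CPM in the shKDM2B libraries, against 778.7, 885.7 and 776.3 CPM in the empty vector libraries (log2 fold change -0.41, SE 0.05, adjusted p 7.77e-06). EIF4A1, usually the more abundant of the pair, had only 14.3, 16.2 and 16.9 CPM in the shKDM2B libraries, against 12.4, 14.6 and 11.7 CPM in the empty vector libraries. It was called higher (log2 fold change 0.31, SE 0.11, adjusted p 0.029), although the groups overlapped. Other annotated genes cover 48.6% of the EIF4A1 exon bases on the same strand, and 13 pseudogene rows hold 70.4% of the counts of EIF4A1 and its pseudogenes together. With those counts added the log2 fold change was -0.09 (adjusted p 0.355), and the call was also lost in DESeq2 (adjusted p 0.0757), so neither the level nor the direction of EIF4A1 is given by these counts. The ratio of EIF4A2 to EIF4A1 counts, 36.5 to 43.0 in the shKDM2B libraries and 60.8 to 66.6 in the empty vector libraries, rests on the same counts.

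Among the partners, EIF4H, which stimulates the helicase, fell slightly (log2 fold change -0.29, SE 0.06, adjusted p 0.000881; 0.288 against a 1.2-fold change), and EIF4B, which does the same, was not called (log2 fold change -0.05, SE 0.04, adjusted p 0.325). PABPC1, the main cytoplasmic poly(A)-binding protein, fell more clearly. It had 2222.6, 2241.4 and 2312.1 CPM in the shKDM2B libraries, against 3232.7, 3314.9 and 3203.4 CPM in the empty vector libraries (log2 fold change -0.53, SE 0.03, adjusted p 3.47e-09).

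The eIF4E-binding proteins, which compete with eIF4G for eIF4E and are released by mTORC1, moved in opposite directions. EIF4EBP1 had 45.9, 50.4 and 49.2 CPM in the shKDM2B libraries, against 77.9, 101.8 and 82.2 CPM in the empty vector libraries. It fell by 0.84 on the log2 scale (SE 0.09, adjusted p 3.33e-06). EIF4EBP2 had 289.8, 281.9 and 305.4 CPM in the shKDM2B libraries, against 153.0, 136.1 and 155.5 CPM in the empty vector libraries. It rose by 0.98 on the log2 scale (SE 0.06, adjusted p 5.09e-09), the largest increase among the 40 tested factors and a 1.97-fold change. Neither gene had overlapping groups.

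Within libraries the ratio of EIF4EBP1 to EIF4EBP2 counts was 0.158, 0.179 and 0.161 in shKDM2B cells, against 0.509, 0.748 and 0.528 in empty vector cells. The ratio was 3.53-fold lower in shKDM2B cells (log2 difference -1.82, SE 0.19), and its highest shKDM2B value lay well below its lowest empty vector value. EIF4EBP1 also fell relative to its binding partner, with a ratio of EIF4EBP1 to EIF4E counts of 0.41, 0.456 and 0.424 in shKDM2B cells, against 0.509, 0.712 and 0.525 in empty vector cells (log2 difference -0.42, SE 0.16). Without empty vector replicate 2 the difference was -0.27. Both differences had the smallest exact permutation p of 0.1. The third family gene EIF4EBP3, which is no member of the 42, had 2 to 4 counts in the libraries and was not tested.

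**Figure D4:**
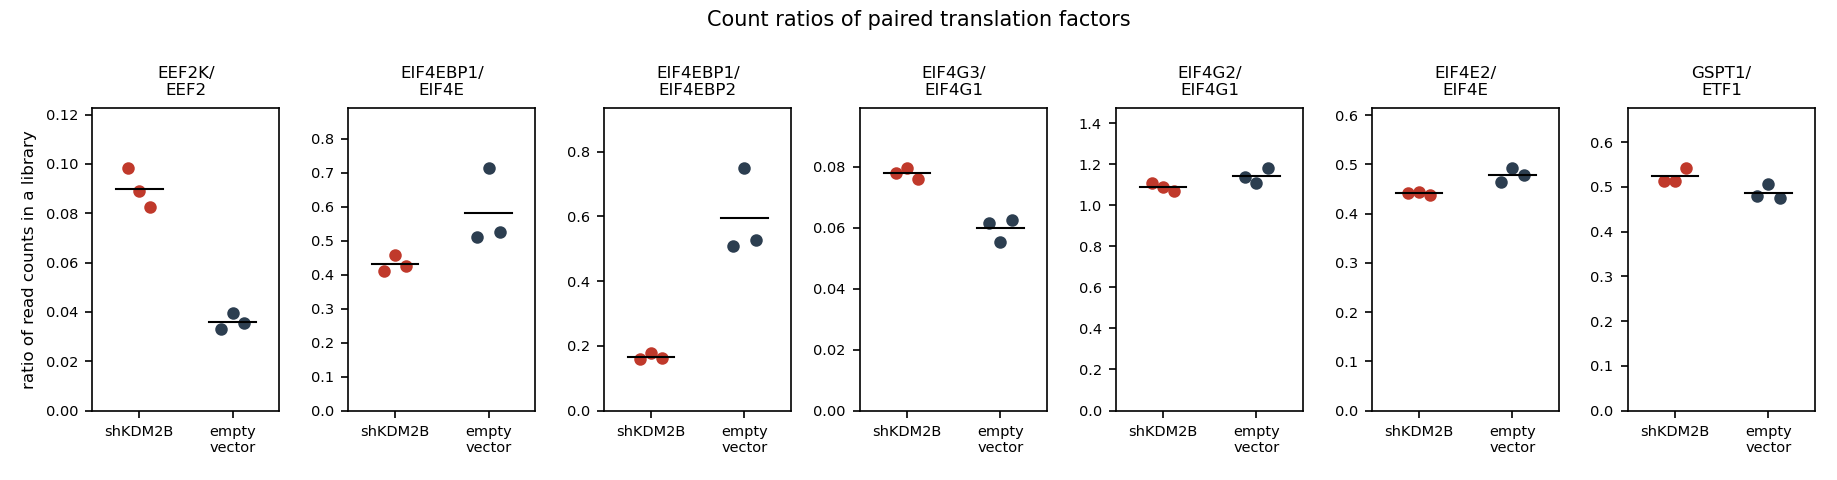
Ratio of the read counts of paired translation factors within each library, for the 3 shKDM2B libraries (left in each panel) and the 3 empty vector libraries (right), with a line at the mean. The ratios do not depend on scaling between libraries. EEF2K/EEF2 is 2.5-fold higher and EIF4EBP1/EIF4EBP2 3.53-fold lower in shKDM2B cells, and the others shown differ by 1.05-fold to 1.34-fold.

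EIF5A and EIF6, which act on the large ribosomal subunit, were both lower. EIF5A, the hypusine-bearing factor that helps the ribosome through stretches such as runs of proline, had 445.5, 451.0 and 490.0 CPM in the shKDM2B libraries, against 1121.9, 918.6 and 1117.9 CPM in the empty vector libraries. It fell by 1.19 on the log2 scale (SE 0.07, adjusted p 8.32e-08), to 43.9% of the empty vector mean. The row of its near-identical copy EIF5AL1 showed the same direction, with 131, 121 and 188 counts in the shKDM2B libraries, against 294, 224 and 347 counts in the empty vector libraries, and reads of the pair cannot be told apart from these counts. The paralog EIF5A2, which is no member of the 42, rose (log2 fold change 0.61, SE 0.08, adjusted p 3.78e-05). EIF6, which keeps the ribosomal subunits apart until the large one is mature, had 219.9, 218.7 and 227.7 CPM in the shKDM2B libraries, against 245.4, 249.3 and 250.9 CPM in the empty vector libraries (log2 fold change -0.16, SE 0.05, adjusted p 0.00731). It did not pass the test against a 1.2-fold change (adjusted p 1.0).

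The termination factors were not called. ETF1, which encodes the stop codon reader eRF1, had 588.6, 576.7 and 595.1 CPM in the shKDM2B libraries, against 570.2, 590.3 and 574.6 CPM in the empty vector libraries (log2 fold change 0.02, SE 0.04, adjusted p 0.668). GSPT1, which encodes the GTPase eRF3, had 302.7, 296.5 and 322.1 CPM in the shKDM2B libraries, against 273.1, 298.9 and 273.7 CPM in the empty vector libraries (log2 fold change 0.12, SE 0.05, adjusted p 0.0568). The groups overlapped for both. GSPT1 had an unadjusted p of 0.0352, was not called by DESeq2, was called higher by limma-voom (adjusted p 0.0425), and was called without empty vector replicate 2 (log2 fold change 0.16, adjusted p 0.000445). The ratio of GSPT1 to ETF1 counts was 0.514, 0.514 and 0.541 in the shKDM2B libraries, against 0.479, 0.506 and 0.476 in the empty vector libraries (exact permutation p = 0.1).

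Genes around the 42 factors were read from lists of neighbouring functions. Over all tested genes 30.4% were lower and 30.5% were higher. Of 17 enzymes that modify elongation factors, eIF5A and eRF1, 9 fell (52.9%) and 2 rose (11.8%), with a median log2 fold change of -0.32. Several of these enzymes build diphthamide, the modified histidine of eEF2. Among them DPH2 (-0.78, adjusted p 9.15e-08) and DPH5 (-0.71, adjusted p 1.87e-06) were lower, and DPH3 (0.74, adjusted p 2.94e-08) was higher. The further diphthamide genes DPH1 (-0.32), DPH7 (-0.64) and DNAJC24 (-0.36) were called lower too. So was DPH6 (-0.71), at low means of 2.42 CPM in shKDM2B cells and 3.87 CPM in empty vector cells. Of 13 regulators at the cap and the poly(A) tail, 6 fell (46.2%) and 4 rose (30.8%), with a median of -0.08. RPS6KB2, an S6 kinase downstream of mTORC1, had the largest fall of that list (-1.98, SE 0.12, adjusted p 4.8e-09), while MKNK2, a kinase of eIF4E, rose (0.87, SE 0.05, adjusted p 5.77e-09) and PDCD4, an inhibitor of eIF4A, rose as well (0.87, SE 0.11, adjusted p 1.5e-05).

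Of 14 tested initiation factors outside the 42, 4 fell and 4 rose (28.6% each, median 0.09), against 30.4% and 30.5% of all tested genes. The subunits of eIF2B, the exchange factor of eIF2, split, with EIF2B1 (-0.57) and EIF2B3 (-0.53) lower. EIF2B4 (0.24) and EIF2B5 (0.13) were higher, and EIF2B2 (0.06) was not called. Of 10 tested genes of ribosome recycling, rescue and further elongation factors, 2 fell and 2 rose (median 0.06). EIF2D, which can deliver initiator tRNA and recycle ribosomes, fell by 0.96 on the log2 scale, PELO, a rescue factor, fell by 0.25, and ABCE1, which splits ribosomes after termination, rose by 0.37. Of 11 tested mitochondrial translation factors, 5 fell (45.5%) and 3 rose (27.3%), with a median of -0.07. MTRFR (-0.61), MRRF (-0.51) and MRPL58 (-0.42) had the largest falls.

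The 6-base word CGACAC was singled out by an earlier search of the 3′ UTRs in these same data, so that its link to lower counts is no independent result. In the 3′ UTR of the GENCODE 29 transcript with the longest coding sequence, it was present for 3 of the 39 tested factors with a 3′ UTR (7.69%), namely EEF2, EIF3B and EIF3F, against 4.21% of tested genes. The sites of EEF2 and EIF3B are shown because these are the factors with the largest falls in elongation and in eIF3, with the word in capitals, 10 bases on either side, and positions counted from the first base of the 3′ UTR.
EEF2, from base 74: aattctcagaCGACACctggagactg
EEF2, from base 93: gagactgtccCGACACagcgacgctc
EIF3B, from base 203: tctgccattgCGACACatttttgtgc
The 3 factors with the word had log2 fold changes of -2.24, -1.21 and -0.63. Of the 36 tested factors without the word in the 3′ UTR read, 21 were lower, among them EIF5A (-1.19), EIF2S2 (-0.99) and EEF2K (-0.93). Only 1 transcript was read per gene, so other 3′ UTRs of a gene were not searched. The 3′ UTR read for EIF5A had 58 bases, and the EIF3F site began at base 2307 of 5840 bases. Over all tested genes 51.5% with the word were lower, against 30.5% without it, and genes with the word had longer 3′ UTRs, with a median of 2650 bases against 1018 bases.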

How the data were processed

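RNA-seq counts of 3 shKDM2B and 3 empty vector libraries were used as the authors deposited them, as raw counts per gene. Per the submitters' processing notes, the tools were STAR and featureCounts, Trim Galore, and edgeR, limma and DESeq2, on GRCh38, with no version or role. Strandedness, the handling of multi-mapping reads and the annotation used for counting are not given in the sources at hand, so counts of overlapping genes, near-identical copies and pseudogenes are uncertain. The knockdown columns carry a code that the labels do not explain and were taken as shKDM2B, the only hairpin group.

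The members and lists were chosen with earlier results of these data known. The filter on low counts was filterByExpr (at least 10 counts, at least 15 in all). Libraries were scaled by TMM and compared in R 4.3.3 by the robust quasi-likelihood test of edgeR 4.0.16, two-sided, with Benjamini-Hochberg adjustment over 14071 genes. Count ratios within libraries and shares of counts were compared by exact two-sided permutation tests over 20 assignments. 1 of the 9 planned ratios (EEF1A2 to EEF1A1) was not computed, because EEF1A2 had libraries at 0 counts. Values per library were given for elongation factors, EEF2K, eIF4F subunits, eIF4E-binding proteins, termination factors and up to 3 called genes per direction of the other lists. Log2 fold changes alone were given for up to 3 called genes with at least 5 CPM of each neighbouring list. The same holds for EIF2S1, the further eIF2B subunits and the further diphthamide genes. Coordinates, exon lengths and 3′ UTRs came from GENCODE 29 and start windows from RefSeq (GRCh38.p14). Scripts were tested on simulated data.

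Alternatives were DESeq2's size factors, upper-quartile scaling, library totals, TMM without translation genes, other filters, DESeq2 (1.42.0), limma-voom (limma 3.58.1), a test against a 1.2-fold change, a replicate block, pseudogene counts added and leaving out each library.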

Additional observations from a re-analysis of the deposited data

How the results depend on the processing

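Of 697 recomputed values for the tested factors and KDM2B, 658 kept their direction and their side of the threshold, 15 lost and 12 gained a call, and 12 changed sign. Of these, 11 belong to factors that were not called, and EIF4A1 was at -0.09 with pseudogene counts added. EIF2S3 was at -0.01, EIF3D at -0.02 and ETF1 at -0.01 with library totals, and EIF2S3 was at -0.00, EIF3D at -0.01 and ETF1 at -0.01 with no filter beyond 1 read. With 1 library left out EIF2S3 ran from -0.03 to 0.05, EIF3C from -0.16 to 0.10, EIF3D from -0.02 to 0.05 and EIF3K from -0.19 to 0.03; the cause was not tested. KDM2B and EEF2 kept their calls under every alternative run. The count of factors lower was 24 to 27 when a library was left out, and that of factors higher 2 to 5, with 5 without empty vector replicate 2. Factors higher numbered 5 with limma-voom and 1 in the test against a 1.2-fold change. That test left 16 factors lower, and 2661 genes lower and 2797 higher over all genes. Scaling moved the median log2 fold change of all genes between -0.01 and -0.04 and that of the factors between -0.22 and -0.26. Same-numbered libraries had r of 0.118, -0.0258 and 0.0751 between their deviations, against -0.135 to 0.0838 for the other pairs. No clear pairing by number was seen, though 3 libraries per group cannot exclude one. With the replicate block 24 factors were lower and 3 higher, and 4230 genes lower and 4249 higher. EEF1A2 and EEF1G had counts at or near 0, and EIF3C and EIF4A1 had few counts beside near-identical copies or pseudogenes.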
